A study of Danio rerio with 4 samples.

Results

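RNA recovered with Flag-tagged DDX39A was compared with the messenger RNA population of zebrafish embryos at 24 h post fertilisation, using the RIP-seq and RNA-seq libraries that carry the ddx39a mutant label. These are 2 of the 4 libraries of the series, and the other pair carries the wild-type label. RNA immunoprecipitation sequencing (RIP-seq) reads the RNA that comes down with a protein. Members were the genes with a CPM (counts scaled to a common library size) of at least 1 in either library: 17711 of 31953 gene rows were compared. The stated aim of the RIP-seq was to find RNAs bound by DDX39A, and the question put to these libraries is which mRNAs are over- or under-represented in RIP-seq.

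All material was whole embryo, with 1 library per group and no replicates, so values compare libraries and carry no test. The RNA-seq library came from ddx39a mutants, and that of the other label from wild type embryos. For RIP-seq the labels' protocol describes ddx39a-Flag mRNA injected into ddx39a mutants at the 1-cell stage and capture on anti-Flag beads. That protocol is given for the RIP-seq library of the wild-type label as well, so the genotype behind that label is unsure, neither RIP-seq library is a mock, and both are named by their labels. RNA-seq stands in for an input here, and the labels do not call it one. In higher and lower genes alike, recovery with the protein cannot be told apart from RNA levels that differ between the embryos used. The allele is named only as ddx39a mutant.

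DDX39A is a DEAD-box RNA helicase, closely related to UAP56 (DDX39B), which works with the THO complex and the adaptor ALYREF in the TREX complex. TREX is loaded on nascent transcripts and hands mature mRNA to the export receptor. In the embryo at this stage muscle, lens, blood and pigment cells are making the mRNAs of their specialised products, while neural and epidermal cells still divide. Sizes of encoded proteins are named below as background: no transcript or protein lengths were used here, and a relation of the ratio to length was not measured.

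Total gene counts were 9533101 in RNA-seq and 2246938 in RIP-seq. The 5 leading RIP-seq features, a 5.8S ribosomal RNA gene, zgc:158463, si:dkey-153m14.1 and 2 genes without a symbol, took 69.5% of the RIP-seq counts, leaving 685613 counts for all other genes. Scaling therefore used TMM factors, which set the bulk of genes to equality. A ratio is RIP-seq over RNA-seq after this scaling, so 1 marks the typical gene. On this scale a CPM of 1 was 17.8 RNA-seq counts or 1.21 RIP-seq counts. A gene with no RIP-seq count needed 57 RNA-seq counts to be called lower, while 2 RIP-seq counts sufficed for a higher call at 0 RNA-seq counts. Folds carry the 95% exact binomial interval in parentheses, which covers counting error only, as PCR copies cannot be told from separate molecules. Called genes differed at least 2-fold with an interval that excluded equality. Of the 23 tissue markers fixed for the embryo, 20 were found by symbol and 17 of these had at least 18 RNA-seq counts. The lowest were the lens markers cryaa and crygm2d10, with 3 and 2 RNA-seq counts, and the globin marker hbae1.1, with 3.

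The bait genes were read first. The symbol DDX39A is carried by 2 genes, and the labels do not say which of them is the mutated one. One of them, ENSDARG00000015111, had 706 counts in the mutant RNA-seq library against 3742 in the wild-type one. In RIP-seq it had 199 counts with the mutant label and 318 with the wild-type label. Its mutant-label ratio was 4.15-fold higher (3.53 to 4.86), and its wild-type-label ratio was 1.53-fold higher (1.36 to 1.71). The injected ddx39a-Flag mRNA may add to these RIP-seq counts, so the ratio need not describe the embryos' own mRNA. The mutant-label RNA-seq count of this gene was the lower of the pair, with library totals close to each other. The other DDX39A gene, ENSDARG00000006225, had 153 RIP-seq and 2382 RNA-seq counts and was 1.06-fold lower (0.898 to 1.25). The paralog ddx39b, which encodes the UAP56 protein, had 14 RIP-seq and 707 RNA-seq counts and was 3.43-fold lower (2.03 to 6.31). With the wild-type label ddx39b was 5.38-fold lower (2.60 to 13.4), and ENSDARG00000006225 1.53-fold higher (1.31 to 1.78).

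Across all 17711 genes, 2441 (13.8%) were higher and 2875 (16.2%) were lower in RIP-seq, and 12395 were not called. The median log2 ratio was -0.14, with the middle 90% of genes between -2.60 and 2.72. Ratios of at least 10-fold were reached by 579 higher and 558 lower genes. Of the 13841 genes that reached the filter in both libraries, 1798 were higher and 2235 lower. Another 643 higher genes reached it in RIP-seq alone and 640 lower genes in RNA-seq alone. Genes that pass in 1 library alone can only differ in that direction. Scaling by total gene counts, which the 5 leading features weigh on, shifted every log2 ratio by -1.79 and gave 500 higher and 12946 lower genes. Upper-quartile scaling shifted it by 0.15. Directions below are therefore relative to the typical gene. Under total-count scaling 37 of 203 named genes and 13 of 54 list medians changed sign. Of the genes, 12 had been called higher: ahnak, NOTCH3, ACTA1, APOB, SNRNP200, mcm3ap, THOC2, EIF4G1, DDX21, ISL1, mt-atp8 and the LRP1 gene ENSDARG00000097827.

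**Figure D1:**
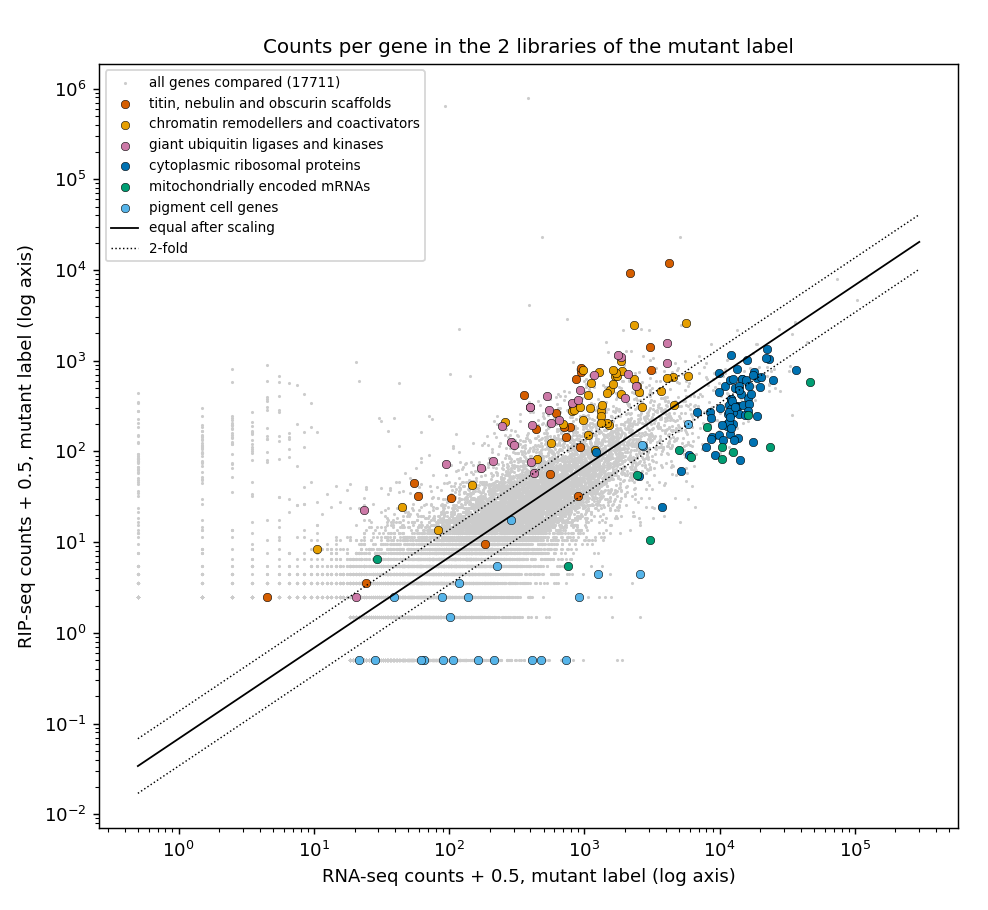
RNA-seq counts (horizontal) and RIP-seq counts (vertical) of each of the 17711 genes compared, both plus 0.5 on log axes, with 6 gene lists coloured. The solid line is equality after TMM scaling and the dotted lines are 2-fold. Titin-type scaffold, chromatin and ubiquitin ligase genes lie above the line, while ribosomal protein, mitochondrially encoded and pigment cell genes lie mostly below it. Scaling by total gene counts would move the line up.

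Among abundant mRNAs, those of the muscle protein titin were higher than those of any other named gene with an RNA-seq CPM of at least 100. Titin is the spring that spans the half-sarcomere, and both titin genes held more RIP-seq than RNA-seq counts although the RIP-seq library was the smaller. TTN ENSDARG00000000563 had 9280 RIP-seq and 2168 RNA-seq counts and was 63.0-fold higher (60.1 to 66.0). TTN ENSDARG00000028213 had 12051 RIP-seq and 4264 RNA-seq counts and was 41.6-fold higher (40.2 to 43.1). Together they made up 3.11% of RIP-seq counts outside the 5 leading features (3.07 to 3.15%), against 0.0675% in RNA-seq outside the same features. Titin, nebulin and obscurin scaffold genes shared a list with the calcium release channel gene RYR1 ENSDARG00000011422. Of its 23 genes, 17 were higher and 0 lower, with a median log2 ratio of 2.58. That is 73.9% of the list against 13.8% of all genes. This and the other lists were chosen with earlier results of these data known, so such shares describe the lists and are no independent test.

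Other long scaffolds and calcium release channels of muscle stood beside titin. The ryanodine receptor gene RYR1 ENSDARG00000011422 had 417 RIP-seq and 358 RNA-seq counts (17.1-fold higher, 14.8 to 19.8). Its copy ENSDARG00000023797 was 12.9-fold higher (11.7 to 14.1). The giant kinase-scaffold gene obscnb was 11.9-fold higher (10.8 to 13.1) and nebulin (NEB), the ruler of the thin filament, 6.82-fold higher (6.40 to 7.27). Utrophin (utrn), which links actin to the membrane and is on the plakin and spectrin list, was 10.6-fold higher (9.56 to 11.8). The titin, nebulin and obscurin list was not uniform. The fast myosin-binding protein gene mybpc2b, its lowest member, had 32 RIP-seq and 901 RNA-seq counts (1.91-fold lower, 1.35 to 2.81) and the calcium channel gene RYR3 56 RIP-seq and 560 RNA-seq counts (1.47-fold higher, 1.1 to 1.94), and neither was called.

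Plakins and spectrins tie filaments to membranes, junctions and nuclei. Of 34 genes, 25 were higher and 0 lower (median log2 ratio 1.54, and -0.25 when scaled by total gene counts). Epiplakin (eppk1), an epithelial keratin linker, had 2903 RIP-seq and 747 RNA-seq counts and was 57.2-fold higher (52.7 to 62.1). The microtubule-actin linker macf1a had 2191 RIP-seq and 1923 RNA-seq counts (16.8-fold higher, 15.8 to 17.8). Dystonin (DST) was 8.32-fold higher (7.35 to 9.41), plectin (pleca) 7.06-fold higher (6.73 to 7.41) and the nuclear envelope gene SYNE1 7.72-fold higher (6.79 to 8.77). The most abundant member, ahnak, had 1536 RIP-seq and 8650 RNA-seq counts and was 2.61-fold higher (2.47 to 2.76). The shorter nesprin syne3 had 66 RIP-seq and 692 RNA-seq counts and was not called.

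Giant ubiquitin ligases and kinases regulate protein turnover, growth and DNA repair. They had the highest share of called genes among lists of over 20 mRNA genes: 26 of 28 were higher (92.9%) and 0 lower, with a median log2 ratio of 2.62. WDFY3, an autophagy scaffold, had 406 RIP-seq and 527 RNA-seq counts (11.3-fold higher, 9.93 to 12.9). The apoptosis inhibitor and ligase BIRC6 had 1140 RIP-seq and 1769 RNA-seq counts (9.48-fold higher, 8.79 to 10.2). The ligase gene UBR4 was 8.72-fold higher (8.09 to 9.40), MYCBP2, which acts in axons, 8.66-fold higher (7.88 to 9.52) and HUWE1 5.60-fold higher (5.28 to 5.94). Growth and RNA surveillance kinases followed, with MTOR 5.10-fold higher (4.36 to 5.95) and SMG1, which starts nonsense-mediated decay, 4.99-fold higher (4.58 to 5.44). NBEA ENSDARG00000070080 was not called, with 57 RIP-seq and 425 RNA-seq counts (1.97-fold higher, 1.47 to 2.61).

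Chromatin remodellers, histone acetyltransferases and DNA demethylases set which genes are open. Of 46 genes 40 were higher and 0 lower (median log2 ratio 2.04, lowest 0.04). Together they held 3.30% of RIP-seq and 0.838% of RNA-seq counts outside the 5 leading features. srcap, the ATPase that exchanges histone H2A.Z into nucleosomes, had 2478 RIP-seq and 2328 RNA-seq counts and was 15.7-fold higher (14.8 to 16.6). The remodeller chd6 had 789 RIP-seq and 972 RNA-seq counts (11.9-fold higher, 10.9 to 13.1), and TET1, which oxidises methylcytosine, 211 RIP-seq and 260 RNA-seq counts (11.9-fold higher, 9.91 to 14.4). EP300 ENSDARG00000061108, an acetyltransferase, was 7.82-fold higher (7.24 to 8.45), and CHD7, which opens enhancers in neural crest, had 2618 RIP-seq and 5690 RNA-seq counts (6.77-fold higher, 6.46 to 7.09). BPTF, of the NURF remodeller, was 5.97-fold higher (5.49 to 6.50), and the H3 lysine methyltransferase gene setd2 5.81-fold higher (5.31 to 6.35). Not every remodeller was called: SMARCA4 ENSDARG00000077226 had 683 RIP-seq and 5836 RNA-seq counts and smarca5 323 RIP-seq and 4617 RNA-seq counts.

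The list of KMT2 methyltransferases and their partners split. KMT2 enzymes write histone H3 lysine methylation at promoters and enhancers inside COMPASS complexes. Of 30 genes 15 were higher and 6 lower, or 6 and 15 when scaled by total gene counts. KMT2C ENSDARG00000079312 had 973 RIP-seq and 824 RNA-seq counts (17.4-fold higher, 15.8 to 19.1), KMT2D 1587 RIP-seq and 1457 RNA-seq counts (16-fold higher, 14.9 to 17.2) and kmt2a 2254 RIP-seq and 2644 RNA-seq counts (12.5-fold higher, 11.9 to 13.3). kmt2bb was 8.51-fold higher (7.94 to 9.12) and the H3 lysine demethylase gene KDM6B 3.61-fold higher (3.35 to 3.90). These catalytic members lay on the higher side. Core subunits shared by the COMPASS complexes were not called: WDR5 had 63 RIP-seq and 1326 RNA-seq counts, RBBP5 34 RIP-seq and 629 RNA-seq counts, ASH2L 41 RIP-seq and 762 RNA-seq counts and the adaptor MEN1 24 RIP-seq and 322 RNA-seq counts. Called lower were the dimerising subunit DPY30, with 24 RIP-seq and 798 RNA-seq counts (2.26-fold lower, 1.51 to 3.55), and SETD1-class partners with few RIP-seq counts. Among these WDR82 had 3 RIP-seq and 192 RNA-seq counts (4.35-fold lower, 1.47 to 21.3) and CXXC1 2 RIP-seq and 266 RNA-seq counts (9.04-fold lower, 2.48 to 75). The chromatin reader psip1a had 2 RIP-seq and 199 RNA-seq counts (6.76-fold lower, 1.85 to 56.2).

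**Figure D2:**
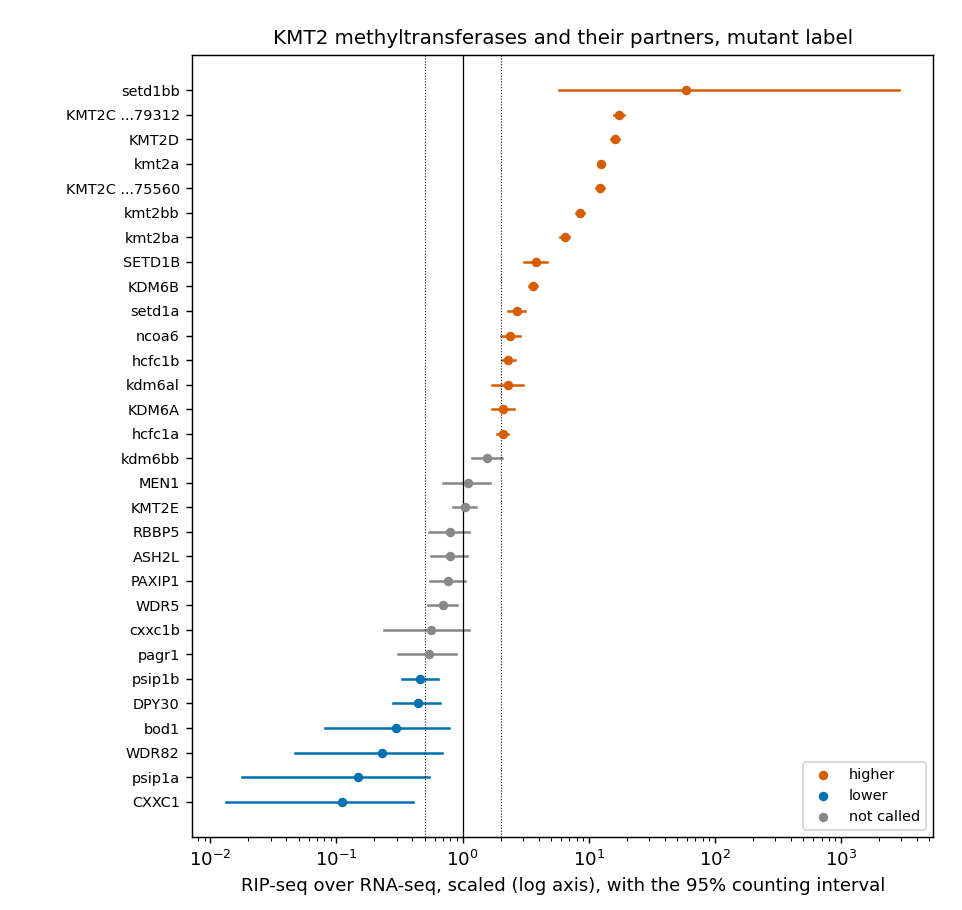
RIP-seq over RNA-seq for all 30 genes of the KMT2 and COMPASS list, on a log axis with the 95% counting interval of each gene. Solid and dotted lines are equality and 2-fold. All KMT2 and SETD1 genes but KMT2E, at equality, sit on the higher side, the partner subunits WDR5, RBBP5, ASH2L and DPY30 below equality, and CXXC1 is the lowest. Copies of 1 symbol are told apart by the end of their gene ID, and setd1bb rests on 5 counts.

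Motor genes were higher in most cases. The list of dynein heavy chains and unconventional myosins also holds the conventional myosin gene MYH9. Of the 30 genes compared 21 were higher and 1 lower (median log2 ratio 1.99). Axonemal dynein heavy chain genes, which drive cilia, led on few counts. DNAH6 had 39 RIP-seq and 31 RNA-seq counts (18.5-fold higher, 11.3 to 30.7), dnah9 39 RIP-seq and 36 RNA-seq counts (15.9-fold higher, 9.87 to 25.8) and DNAH11 50 RIP-seq and 51 RNA-seq counts (14.4-fold higher, 9.57 to 21.7). The myosin gene MYO9A had 254 RIP-seq and 537 RNA-seq counts (6.96-fold higher, 5.97 to 8.09). The cytoplasmic dynein gene DYNC1H1 had 1011 RIP-seq and 3063 RNA-seq counts (4.86-fold higher, 4.52 to 5.22), while the most counted myosin gene of the list, MYH9 ENSDARG00000063295, had 844 RIP-seq and 7667 RNA-seq counts and was not called. Kinesins walk along microtubules. Of 40 genes 19 were higher and 0 lower, with a median log2 ratio of 1.13 that became -0.66 when scaled by total gene counts. KIF26B was 7.56-fold higher (5.64 to 10.1) and KIF13B ENSDARG00000079731 5.43-fold higher (4.75 to 6.19). The mitotic kinesin kif11, the most counted, had 199 RIP-seq and 2778 RNA-seq counts at 1.05-fold higher (0.908 to 1.22).

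Giant adhesion molecules and lipoprotein receptors, 34 of 46 higher and 1 lower, shape tissue polarity and matrix. The fat cadherin genes FAT1 ENSDARG00000017591 and FAT2 had 2190 RIP-seq and 3002 RNA-seq counts (10.7-fold higher, 10.2 to 11.3) and 801 RIP-seq and 878 RNA-seq counts (13.4-fold higher, 12.2 to 14.8). Hemicentin (HMCN1), a matrix adhesion protein of fin folds, was 11.7-fold higher (10.2 to 13.5) and the receptor LRP1 ENSDARG00000029146 9.41-fold higher (8.55 to 10.4). NOTCH3, the most counted, had 618 RIP-seq and 4213 RNA-seq counts (2.16-fold higher, 1.98 to 2.35). Tenascin C ENSDARG00000078362 was the 1 lower member, with 4 RIP-seq and 265 RNA-seq counts. Protocadherins, the neural cell recognition family, had 12 higher and 1 lower of 26, with a median log2 ratio of 1.28, or -0.51 over the same 26 genes when scaled by total gene counts (-1.49 over the 36 that then pass the filter). PCDH7 was 8.55-fold higher (6.95 to 10.5) and pcdh8 6.36-fold higher (4.73 to 8.47), and the lower member pcdh1g32 had 1 RIP-seq and 163 RNA-seq counts.

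**Figure D3:**
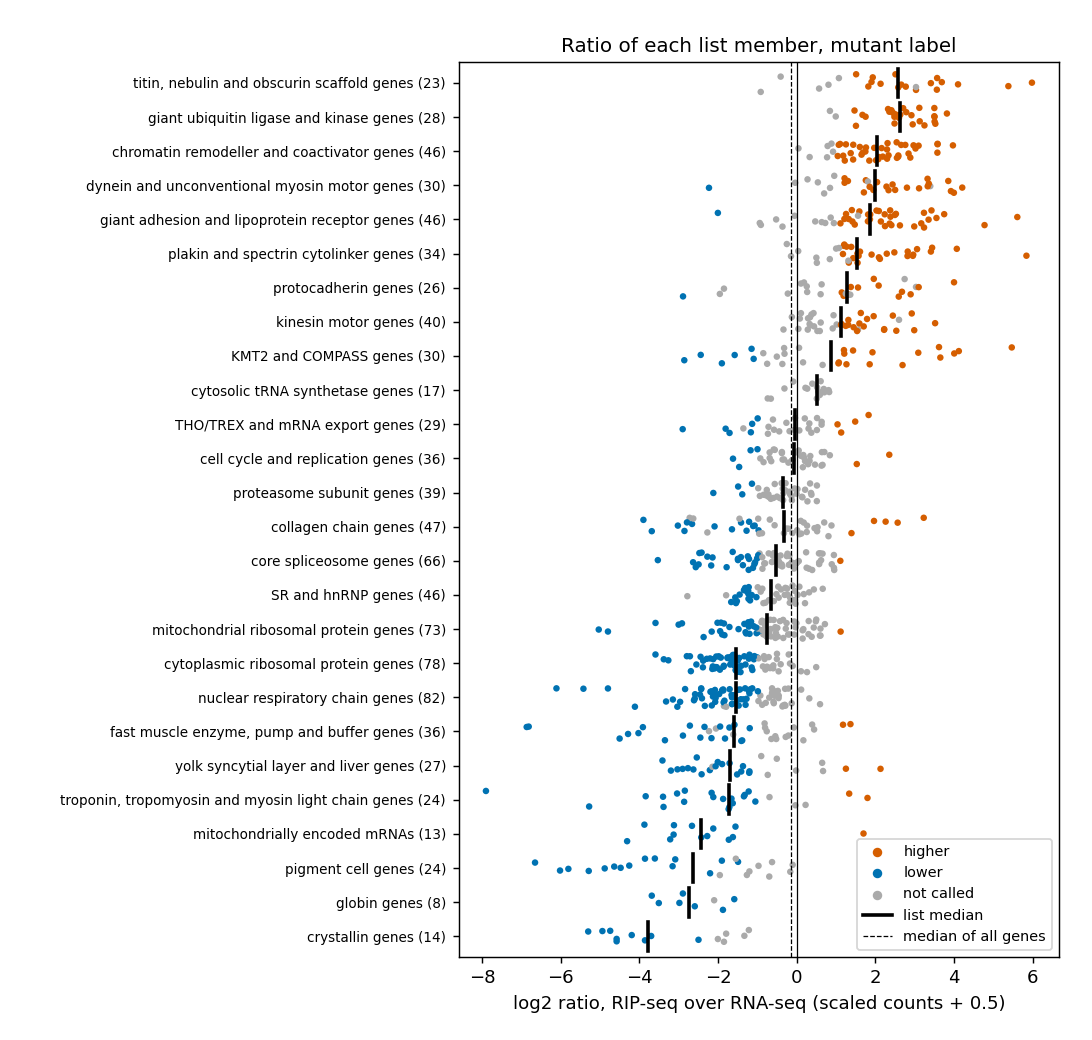
Log2 ratio of RIP-seq over RNA-seq for every compared member of 26 gene lists, 1 point per gene, with the number compared in parentheses, the list median as a bar and the median of all genes as a dashed line. Orange points were called higher and blue lower. Scaffold, chromatin, motor and adhesion lists lie to the right, where the plakin, protocadherin, kinesin and KMT2 medians would cross 0 when scaled by total gene counts, and ribosomal, respiratory, muscle, yolk, pigment, globin and crystallin lists lie to the left.

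Proliferation and growth genes were mostly near equality, with single high members. The proliferation marker mki67 had 1433 RIP-seq and 4132 RNA-seq counts (5.10-fold higher, 4.80 to 5.42), while the replication genes MCM5, with 283 RIP-seq and 3024 RNA-seq counts, and PCNA, with 474 RIP-seq and 8957 RNA-seq counts, were not called. The division machinery as a whole thus did not move with mki67. Of 36 cell cycle genes 2 were higher and 4 lower, both shares below those of all genes. GREB1L, a developmental regulator, was 9.40-fold higher (8.74 to 10.1), the long zinc finger gene znf469 had 596 RIP-seq and 1002 RNA-seq counts (8.75-fold higher, 7.89 to 9.70) and the anoctamin gene ano9a 603 RIP-seq and 21 RNA-seq counts (422-fold higher, 274 to 688). Zinc finger genes as a list had 28 higher and 16 lower of 187. The higher share of 15% was near the 13.8% of all genes, and the lower share of 8.56% was below their 16.2%. ZNF706 had 8 RIP-seq and 672 RNA-seq counts (5.71-fold lower, 2.88 to 13.3). herc7, chosen after its values were seen, had 154 RIP-seq and 112 RNA-seq counts (20.2-fold higher, 15.8 to 26.0).

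Early mesoderm and myoblast genes also held higher members. Of 17 presomitic mesoderm genes 6 were higher (35.3%, against 13.8% of all genes) and 2 lower (11.8%, against 16.2%). The T-box genes tbx6 and tbx16, which direct paraxial mesoderm, had 30 RIP-seq and 74 RNA-seq counts (5.97-fold higher, 3.77 to 9.23) and 19 RIP-seq and 58 RNA-seq counts (4.82-fold higher, 2.71 to 8.21). The posterior homeobox gene cdx4 was 4.34-fold higher (2.81 to 6.54). Of 26 myogenic determination and fusion genes 7 were higher (26.9%) and 3 lower (11.5%). This list also holds tbx6 and tbx16, so its higher genes overlap with those of the presomitic mesoderm list. Myomixer (mymx), which fuses myoblasts, had 232 RIP-seq and 594 RNA-seq counts (5.75-fold higher, 4.92 to 6.70), and the determination gene MYOD1 had 25 RIP-seq and 466 RNA-seq counts, not called.

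On the lower side, the machinery of protein synthesis led by abundance. Of 78 cytoplasmic ribosomal protein genes 57 were lower (73.1%, against 16.2% of all genes) and 0 higher, with a median log2 ratio of -1.53. Their summed share was 4.4% of RIP-seq and 10.9% of RNA-seq counts outside the 5 leading features. RPS29 had 79 RIP-seq and 14078 RNA-seq counts (12.1-fold lower, 9.71 to 15.3), RPL37 125 RIP-seq and 17713 RNA-seq counts (9.63-fold lower, 8.08 to 11.6) and the stalk protein gene rplp2 24 RIP-seq and 3747 RNA-seq counts (10.6-fold lower, 7.12 to 16.6). The list went from 57 lower genes to members near equality. RPL3 had 1039 RIP-seq and 23167 RNA-seq counts at 1.52-fold lower (1.42 to 1.61), RPL4 1064 RIP-seq and 22179 RNA-seq counts at 1.42-fold lower (1.33 to 1.51), and RPL19 1158 RIP-seq and 12093 RNA-seq counts at 1.41-fold higher (1.33 to 1.5). The elongation factor genes eef1a1l1 and eef2b had 4633 RIP-seq and 103081 RNA-seq counts and 2602 RIP-seq and 35896 RNA-seq counts, at 1.51-fold lower (1.47 to 1.56) and 1.07-fold higher (1.02 to 1.11). Of 8 elongation factor genes 2 were lower (25%, on few genes) and 0 higher.

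Initiation factors brought some of each direction. In all, 3 of 52 were higher (5.77%, against 13.8% of all genes) and 14 lower (26.9%, against 16.2%). The cap-complex scaffold EIF4G1 was 2.63-fold higher (2.46 to 2.82), and EIF4G3 ENSDARG00000074331 3.48-fold higher (2.94 to 4.11). The start-codon factor EIF1 had 65 RIP-seq and 3254 RNA-seq counts (3.40-fold lower, 2.66 to 4.42), and EIF4E2, a cap-binding protein, had 0 RIP-seq and 179 RNA-seq counts (at least 4.06-fold lower). The largest eIF3 subunit gene EIF3A had 632 RIP-seq and 8995 RNA-seq counts at 1.03-fold higher (0.952 to 1.12). None of the 17 cytosolic tRNA synthetase genes was called. These enzymes charge tRNAs with amino acids, and their genes ranged from KARS1, with 131 RIP-seq and 3051 RNA-seq counts, to EPRS1, with 266 RIP-seq and 2213 RNA-seq counts. Of 39 proteasome genes 4 were lower, PSMB6 by 4.42-fold (3.05 to 6.67), and 0 higher, which puts the lower share of 10.3% below the 16.2% of all genes. The regulatory particle gene PSMD6 had 133 RIP-seq and 1376 RNA-seq counts (1.42-fold higher, 1.18 to 1.70) and was not called.

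Mitochondrial transcripts were low, those made in the organelle and those made in the nucleus. Of the 13 mRNAs encoded by mitochondrial DNA, 12 were lower (median log2 ratio -2.43). The cytochrome oxidase genes MT-CO1 and MT-CO2 had 586 RIP-seq and 46377 RNA-seq counts (5.38-fold lower, 4.96 to 5.85) and 110 RIP-seq and 23776 RNA-seq counts (14.7-fold lower, 12.2 to 17.9), and the complex I gene MT-ND3 had 10 RIP-seq and 3063 RNA-seq counts (20.8-fold lower, 11.3 to 43.5). The exception, mt-atp8, had 6 RIP-seq and 29 RNA-seq counts (3.04-fold higher, 1.03 to 7.46) and lies against mt-atp6, so its reads are uncertain. Nuclear respiratory chain genes had 53 lower and 0 higher of 82. The small ATP synthase subunit gene atp5md had 2 RIP-seq and 1574 RNA-seq counts (53.5-fold lower, 14.8 to 442) and the complex I gene ndufc1 0 RIP-seq and 506 RNA-seq counts (at least 11.5-fold lower). Not called were the complex III core gene UQCRC1, with 135 RIP-seq and 2179 RNA-seq counts, and the complex I gene NDUFA10, with 68 RIP-seq and 668 RNA-seq counts. Mitochondrial ribosomal protein genes had 27 lower and 1 higher of 73. mrpl42 had 0 RIP-seq and 240 RNA-seq counts (at least 5.44-fold lower) and mrpl52 0 RIP-seq and 204 RNA-seq counts (at least 4.62-fold lower), while MRPL2 had 47 RIP-seq and 425 RNA-seq counts and was not called. Carriers, which move metabolites across the inner membrane, had 16 lower and 0 higher of 48.

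Fast muscle, whose titin genes were among the highest, had most troponin and light chain genes on the lower side. In whole embryos, less recovery with the protein, fewer cells of a type and less RNA per cell cannot be told apart. This holds here and for the tissue lists that follow. Of 24 troponin, tropomyosin and myosin light chain genes 19 were lower and 2 higher. TNNT3 ENSDARG00000068457 had 2 RIP-seq and 1423 RNA-seq counts (48.4-fold lower, 13.4 to 399.7), and TNNI2 ENSDARG00000029069 0 RIP-seq and 1753 RNA-seq counts (at least 39.7-fold lower). These form the calcium switch of the thin filament. Another TNNI2 gene, ENSDARG00000005841, went the other way on fewer counts, with 19 RIP-seq and 82 RNA-seq counts (3.41-fold higher, 1.95 to 5.67). The light chain genes MYL1 ENSDARG00000017441 and MYL11 ENSDARG00000053254 were 10.6-fold lower (7.43 to 15.8) and 4.49-fold lower (3.83 to 5.29).

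Calcium handling and energy genes of fast fibres followed the light chains. Of 36 genes 19 were lower and 2 higher. Parvalbumins, the calcium buffers, were nearly missing from RIP-seq. pvalb2 had 1 RIP-seq and 2566 RNA-seq counts (174-fold lower, 31.3 to 6891) and pvalb1 0 RIP-seq and 825 RNA-seq counts (at least 18.7-fold lower). The calcium pump gene atp2a1 and the actin gene actc1b were 2.29-fold lower (2.12 to 2.48) and 3.0-fold lower (2.75 to 3.26), and GAPDH, the glycolytic enzyme, 10.3-fold lower (7.59 to 14.4). The skeletal actin ACTA1 ENSDARG00000036371 was 2.57-fold higher (2.27 to 2.91). Heavy chains, the motors of the thick filament, were not high: of 8 fast myosin heavy chain genes 4 were lower and 1 higher. myhz1.3 had 364 RIP-seq and 18174 RNA-seq counts (3.39-fold lower, 3.06 to 3.77) and myhz1.2 19 RIP-seq and 3890 RNA-seq counts (13.9-fold lower, 8.90 to 23.1), and near-identical copies in this cluster can share reads.

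Globins and crystallins, the main products of red cells and lens, were low in RIP-seq. Of 8 globin genes 7 were lower, hbae3 by 3.69-fold (2.93 to 4.71) and hbbe3 by 8.06-fold (5.41 to 12.6). The ammonia channel gene of red cells RHAG had 0 RIP-seq and 544 RNA-seq counts (at least 12.3-fold lower), while the heme enzyme gene UROD had 51 RIP-seq and 705 RNA-seq counts, not called. Of 24 red cell heme and membrane genes 5 were lower and 0 higher, a lower share of 20.8% near the 16.2% of all genes. Of 14 crystallins 9 were lower and 12 had no RIP-seq count. CRYBB1 had 0 RIP-seq and 289 RNA-seq counts (at least 6.55-fold lower). The median of the crystallin list was -3.78 and -1.43 with genes at 0 set to their bound.

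Pigment cell genes were the list with the lowest median among those with over 20 genes, at -2.64, but this rank rests on genes at 0. With these set to their bound the pigment median was -1.27. The troponin, tropomyosin and light chain (-1.68), ribosomal protein (-1.53), yolk layer (-1.51) and nuclear respiratory chain (-1.48) medians were then lower. Of 24 genes 15 were lower, 0 higher and 11 without a RIP-seq count. Melanin synthesis runs through TYR, TYRP1 and DCT. TYR had 0 RIP-seq and 475 RNA-seq counts (at least 10.8-fold lower), DCT 0 RIP-seq and 738 RNA-seq counts (at least 16.7-fold lower) and TYRP1 ENSDARG00000056151 2 RIP-seq and 915 RNA-seq counts (31.1-fold lower, 8.58 to 257). The pteridine enzyme genes of yellow pigment cells, gch2 and PTS, had 4 RIP-seq and 2581 RNA-seq counts (43.9-fold lower, 17.1 to 161) and 0 RIP-seq and 410 RNA-seq counts (at least 9.29-fold lower), and the melanosome fibril gene pmela 4 RIP-seq and 1264 RNA-seq counts (21.5-fold lower, 8.37 to 78.9). The purine synthesis gene PAICS, which other cells also use, had 201 RIP-seq and 5811 RNA-seq counts and was not called.

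In the yolk syncytial layer, which exports lipid to the embryo, the apolipoproteins parted. Of 27 genes 18 were lower and 2 higher. apoc1 had 80 RIP-seq and 10861 RNA-seq counts (9.23-fold lower, 7.41 to 11.6), apoc2 16 RIP-seq and 2583 RNA-seq counts (11-fold lower, 6.74 to 19.2), apoa2 141 RIP-seq and 14147 RNA-seq counts (6.82-fold lower, 5.78 to 8.11) and apoa1b 458 RIP-seq and 28149 RNA-seq counts (4.18-fold lower, 3.81 to 4.59). Apolipoprotein B is the very large backbone of the lipid particle. APOB had 2174 RIP-seq and 13457 RNA-seq counts (2.38-fold higher, 2.27 to 2.49), and apobb.1 had 7927 RIP-seq and 73368 RNA-seq counts at 1.59-fold higher (1.55 to 1.63), not called.

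Secreted and skin genes were mixed. Of 47 collagens 14 were lower (29.8%, against 16.2% of all genes) and 5 higher (10.6%, against 13.8%). The fibrillar type I genes col1a1a and COL1A1 had 110 RIP-seq and 11742 RNA-seq counts (7.25-fold lower, 6.01 to 8.83) and 47 RIP-seq and 5670 RNA-seq counts (8.20-fold lower, 6.16 to 11.2), and COL6A2 1 RIP-seq and 328 RNA-seq counts (22.3-fold lower, 3.97 to 883). col5a3a and the long fibril-linking collagen COL12A1 ENSDARG00000019601 stood 4.78-fold (4.05 to 5.61) and 3.90-fold (3.52 to 4.31) above RNA-seq, and the notochord collagen COL2A1 ENSDARG00000069093 stood at 1.08-fold lower (0.977 to 1.2). Of 15 epidermal genes 5 were higher (33.3%) and 2 lower (13.3%). krt91 was 12.2-fold higher (9.22 to 16.1) and krt18b 3.67-fold lower (2.09 to 7.14), while krt4, one of the most counted mRNAs, had 8053 RIP-seq and 121390 RNA-seq counts and a ratio near equality (1.02-fold lower, 1.00 to 1.05). Of 14 hatching gland and notochord genes 6 were lower (42.9%) and 0 higher.

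Other named genes were among the lowest by the interval bound. The metallothionein gene MT1X had 1 RIP-seq and 1614 RNA-seq counts (109.7-fold lower, 19.7 to 4335), the S100-type gene icn2 3 RIP-seq and 2239 RNA-seq counts (50.7-fold lower, 17.3 to 246) and the glycerol channel AQP3 ENSDARG00000003808 0 RIP-seq and 540 RNA-seq counts (at least 12.2-fold lower). aep1 had 2 RIP-seq and 1291 RNA-seq counts (43.9-fold lower, 12.1 to 363). Of 27 chaperone genes 8 were lower (29.6%, against 16.2% of all genes) and 2 higher (7.41%, against 13.8%). CALR was 5.37-fold lower (3.34 to 9.25) and HSP90B1 3.06-fold lower (2.18 to 4.44). HSPA8 ENSDARG00000068992 had 1971 RIP-seq and 34515 RNA-seq counts and was not called. Of 16 p53 targets 4 were lower (25%, against 16.2% of all genes) and 0 higher, which rests on few genes.

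Neural lists were lower as well. Of 36 progenitor genes 12 were lower and 1 higher, and of 32 neuron genes 12 and 2. SOX2, which holds progenitors, had 26 RIP-seq and 1214 RNA-seq counts (3.17-fold lower, 2.16 to 4.88), and the Notch target her4.4 4 RIP-seq and 403 RNA-seq counts (6.85-fold lower, 2.65 to 25.3). The tubulin gene tubb5 was 2.29-fold lower (1.81 to 2.94) and the neurofilament gene nefmb had 1 RIP-seq and 170 RNA-seq counts (11.6-fold lower, 2.05 to 459). The motor neuron factor ISL1 was 2.68-fold higher (1.82 to 3.83). Of 15 Hox genes 2 were lower (13.3%) and 0 higher. Of 39 single-exon transcription factor genes 9 were lower (23.1%) and 6 higher (15.4%), and of 16 endothelial and blood cell genes 1 and 1 (6.25% each). Among all genes 16.2% were lower and 13.8% higher, so the Hox and endothelial shares were below those of all genes.

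The mRNAs of RNA processing factors, the partners of the helicase, were not high as a group. Of 29 THO/TREX and export genes 4 were higher (13.8%, the share of all genes) and 6 lower (20.7%, near their 16.2%). The median log2 ratio of -0.05 lay next to that of all genes. zc3h11a, a TREX-associated zinc finger gene, had 276 RIP-seq and 1147 RNA-seq counts (3.54-fold higher, 3.09 to 4.04), the pore-associated export scaffold gene mcm3ap 141 RIP-seq and 743 RNA-seq counts (2.79-fold higher, 2.32 to 3.35) and the THO scaffold THOC2 367 RIP-seq and 2471 RNA-seq counts (2.19-fold higher, 1.95 to 2.44). The THO subunits THOC1 and THOC5 were not called, with 62 RIP-seq and 736 RNA-seq counts and 49 RIP-seq and 591 RNA-seq counts. The adaptor alyref had 315 RIP-seq and 10175 RNA-seq counts (2.2-fold lower, 1.96 to 2.46), ERH 36 RIP-seq and 1753 RNA-seq counts (3.31-fold lower, 2.38 to 4.74) and the small pore-complex protein ENY2 4 RIP-seq and 493 RNA-seq counts (8.38-fold lower, 3.25 to 30.9).

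Core spliceosome genes and SR and hnRNP genes had more lower than higher members, unlike exon junction and decay genes and other helicases. Of 66 core spliceosome genes 23 were lower (34.8%, against 16.2% of all genes) and 1 higher. LSM5 and LSM6, small ring proteins of the U6 particle, had 3 RIP-seq and 594 RNA-seq counts (13.5-fold lower, 4.58 to 65.4) and 8 RIP-seq and 740 RNA-seq counts (6.29-fold lower, 3.17 to 14.6), and SF3B6 9 RIP-seq and 776 RNA-seq counts (5.86-fold lower, 3.07 to 12.9). The helicase SNRNP200 had 448 RIP-seq and 3061 RNA-seq counts (2.15-fold higher, 1.95 to 2.38) and PRPF8, the largest spliceosome protein, 708 RIP-seq and 5412 RNA-seq counts (1.92-fold higher, 1.78 to 2.08), not called. SR and hnRNP genes had 15 lower (32.6%) and 0 higher of 46. The median log2 ratio was -0.53 for core spliceosome genes and -0.65 for SR and hnRNP genes. Among all genes with an RNA-seq CPM above 100, 38.2% were lower and the median was -0.63. These lists were not matched to other genes by level. HNRNPA1L2 was 2.92-fold lower (2.54 to 3.38) and hnrnpa0l 2.88-fold lower (2.55 to 3.25). SRSF11, with 265 RIP-seq and 2888 RNA-seq counts, and srsf5a, with 472 RIP-seq and 5588 RNA-seq counts, were not called. Of 14 exon junction and decay genes 2 were higher and 2 lower (14.3% each), near the 13.8% and 16.2% of all genes. The small junction proteins MAGOHB and RBM8A were 2.23-fold lower (1.62 to 3.15) and 2.24-fold lower (1.78 to 2.87), while the junction helicase EIF4A3 had 203 RIP-seq and 2306 RNA-seq counts and the decay helicase UPF1 165 RIP-seq and 1300 RNA-seq counts, neither called. Other DEAD and DEAH box helicase genes had 9 higher of 50 (18%, near the 13.8% of all genes) and 1 lower (2%, below their 16.2%). The nucleolar helicase DDX21 was 2.72-fold higher (2.45 to 3.02), DDX6, which represses translation, 3.45-fold higher (2.59 to 4.54) and the initiation helicase eif4a1b 3.35-fold lower (2.58 to 4.42).

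Histone genes were read on lists split after values were seen. Of those named here, hist2h3c, hist1h2a7, hist1h2a11, h1l1 and h2ax2 passed the filter through RIP-seq alone and could only come out higher. The core histone median of 9.09 became -1.10 over genes with an RNA-seq CPM of at least 1, so no division by class is read from these lists. Replication-dependent histone mRNAs end in a stem-loop and mostly lack a poly(A) tail, and 7 of 8 of their genes were higher, and both embryonic linker histone genes compared. hist2h3c had 344 RIP-seq and 9 RNA-seq counts (562-fold higher, 293 to 1240), hist1h2a7 121 RIP-seq and 2 RNA-seq counts (890.2-fold higher, 241 to 7434) and hist1h2a11 81 RIP-seq and 0 RNA-seq counts (at least 397-fold higher), while hist2h2l had 10 RIP-seq and 331 RNA-seq counts (2.25-fold lower, 1.21 to 4.73). The linker histone gene h1l1 had 812 RIP-seq and 2 RNA-seq counts (5974-fold higher, 1648 to 49412) and histh1l1 1279 RIP-seq and 2017 RNA-seq counts (9.33-fold higher, 8.69 to 10). Replacement histone genes had 5 lower and 2 higher of 10. h3f3a and H3-3B had 235 RIP-seq and 8863 RNA-seq counts (2.56-fold lower, 2.25 to 2.93) and 95 RIP-seq and 5059 RNA-seq counts (3.62-fold lower, 2.95 to 4.48), and h2ax2 and h2ax, whose products mark DNA breaks, 193 RIP-seq and 2 RNA-seq counts (1420-fold higher, 388 to 11808) and 248 RIP-seq and 70 RNA-seq counts (52.1-fold higher, 39.8 to 69). Histone copies are near-identical and their split of reads is uncertain.

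Non-coding RNA genes with many RIP-seq counts had few RNA-seq counts. 5_8S_rRNA ENSDARG00000081218 had 88705 RIP-seq and 1 RNA-seq counts, and the 7SK gene rn7sk 2226 RIP-seq and 117 RNA-seq counts (279.9-fold higher, 232 to 340.1), the signal recognition particle gene rn7sl1 4069 RIP-seq and 389 RNA-seq counts (154-fold higher, 139 to 171), rmrp 441 RIP-seq and 0 RNA-seq counts (at least 2163-fold higher) and U2 ENSDARG00000082321 225 RIP-seq and 0 RNA-seq counts (at least 1104-fold higher). Of 14 small nucleolar RNA genes that passed the filter 13 were higher, of 5 small nuclear RNA genes 5, of 9 ribosomal RNA genes 8, of 4 genes for 7SL, RNase P and RNase MRP RNAs 4 and of 5 microRNA genes 2, with 1 lower. Most genes of these classes did not pass, and those that passed through RIP-seq alone had to be high there.

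The share of lower calls was larger among abundant mRNAs, which also have the counts that such a call needs. At 0 RIP-seq counts a lower call needed 57 RNA-seq counts, and a CPM of 1 was 17.8. Part of the lowest class below therefore could not be called lower, so the shares of lower calls are not alike in reach. Among 8472 genes with an RNA-seq CPM of 1 to 10, 10.4% were higher and 9.01% lower. At a CPM of 10 to 100 these shares were 11.5% and 24.8% of 7202 genes, and above 100 they were 10.6% and 38.2% of 853 genes. The median log2 ratio went from -0.20 to -0.63 from the lowest to the highest of these classes. List shares were set against all genes and not against genes of like level. Just inside the filter NXNL2, TMEM63C and SLC5A12 had 18 RNA-seq counts and 1, 0 and 0 RIP-seq counts. Just outside it PCSK1, CHRNA5 and GALK2 had 17, and 0, 0 and 1.

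The pair of libraries with the wild-type label was scaled and called in the same way, with 1568 of 17412 genes higher (9.01%) and 2450 lower (14.1%). Over 16580 genes compared under both labels, 2095 were higher with the mutant label and 1328 with the wild-type label. They shared 662, which is 31.6% of the first list and 49.8% of the second. The lower lists of 2875 and 2447 shared 1495, or 52.0% and 61.1%. Across 13712 genes with at least 20 counts per pair and reads in every library, Spearman's rho between the log2 ratios was 0.57 and Pearson's r 0.74. The points share their libraries, depth and mapping within each pair, so this describes these libraries only.

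Giant-protein lists had fewer higher genes with the wild-type label, read against its 9.01% of all genes. For giant ubiquitin ligases and kinases, 26 higher genes with the mutant label stood beside 4 with the wild-type label, and the median log2 ratio was 2.62 beside 0.54. For chromatin remodellers and coactivators 40 stood beside 4, and for plakins and spectrins 25 beside 1. For srcap the wild-type label gave 199 RIP-seq and 2231 RNA-seq counts (1.60-fold higher, 1.38 to 1.85), for kmt2a 104 RIP-seq and 1717 RNA-seq counts (1.09-fold higher, 0.884 to 1.33) and for macf1a 208 RIP-seq and 2373 RNA-seq counts (1.58-fold higher, 1.36 to 1.82). Both titin genes were called higher with the wild-type label too, at 5.62-fold higher (5.34 to 5.92) for ENSDARG00000000563 and 4.98-fold higher (4.74 to 5.22) for ENSDARG00000028213, and eppk1 was 3.73-fold higher (3.09 to 4.49). The RNA-seq counts of the titin genes were 6143 and 7846 with that label, against 2168 and 4264 with the mutant label. Their RIP-seq counts were 1921 and 2173, against 9280 and 12051. The titin, nebulin and obscurin list had 6 higher and 5 lower of 23 with the wild-type label (median log2 ratio 0.30). Giant adhesion and lipoprotein receptor genes had 3 higher and 10 lower of 43. With 1 library each, no test of the difference between labels exists.

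Of the lower lists, some had similar counts under both labels and others fewer lower genes with the wild-type label. Ribosomal protein genes had 57 and 44 lower calls (mutant, then wild-type label), mitochondrially encoded mRNAs 12 and 12, pigment cell genes 15 and 16, and yolk layer genes 18 and 22. Mitochondrial ribosomal protein genes had 27 of 73 and 13 of 73, the latter near the 14.1% of all genes with the wild-type label. Troponin and light chain genes had 19 and 12. Mitochondrial carriers had 16 of 48 and 5 of 49, the last below that 14.1%. Red cell heme and membrane genes had a median log2 ratio of -0.51 and 0.08. gch2 had 6 RIP-seq and 2669 RNA-seq counts with the wild-type label, pvalb2 9 RIP-seq and 5455 RNA-seq counts, TNNT3 ENSDARG00000068457 4 RIP-seq and 3436 RNA-seq counts and MT-CO2 71 RIP-seq and 24949 RNA-seq counts. Collagens had more lower calls with the wild-type label, 25 against 14. High ratios were present with the wild-type label for histh1l1 (7.85-fold higher, 7.38 to 8.34), tbx6 (6.32-fold higher, 3.54 to 10.8), tbx16 (7.91-fold higher, 3.51 to 16.7) and DDX21 (6.56-fold higher, 6.06 to 7.10). Of the 2095 higher genes 30 were called lower with the wild-type label, and of the 2875 lower genes 13 were called higher.

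**Figure D4:**
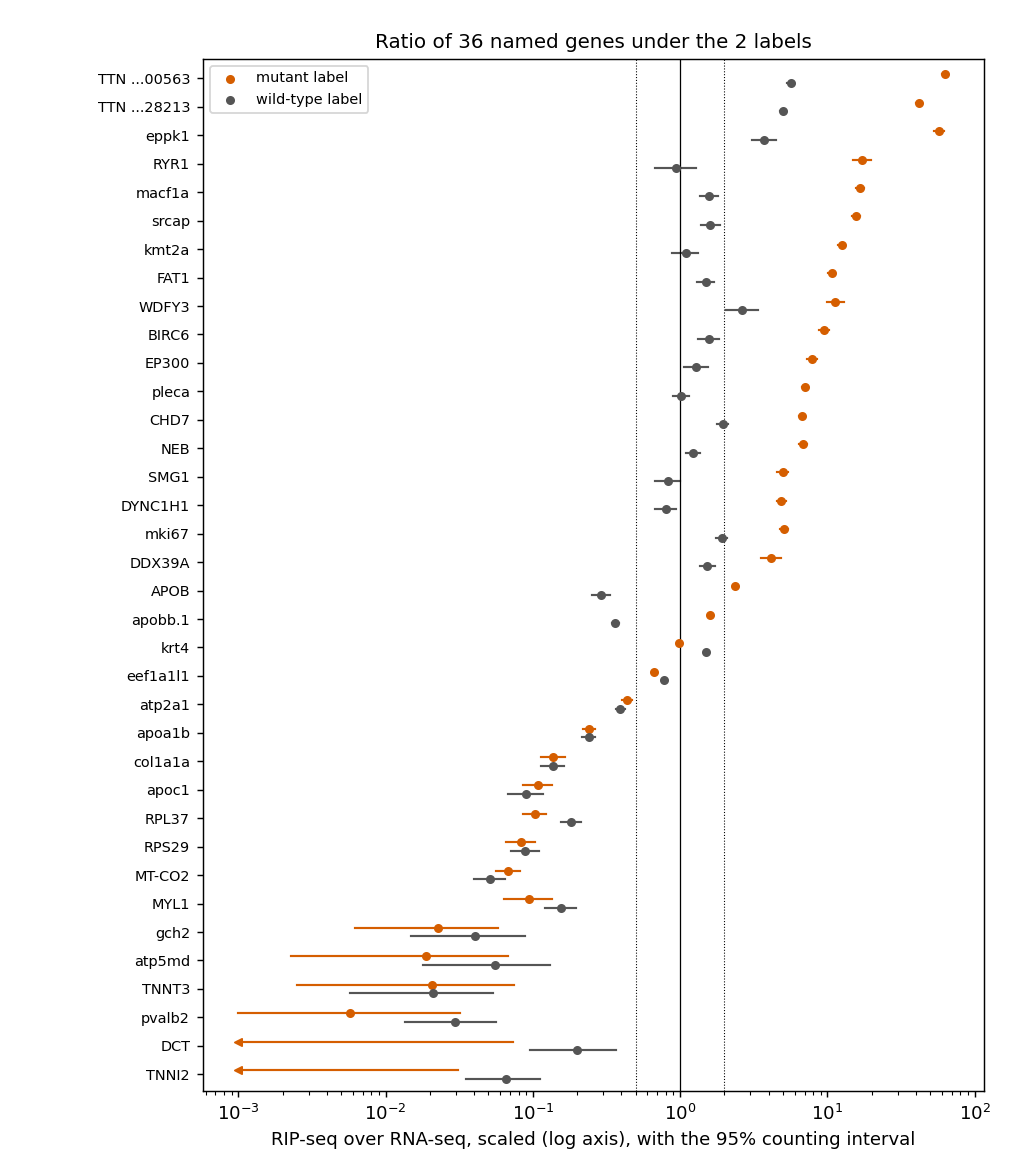
RIP-seq over RNA-seq of 36 named genes with the mutant label (orange) and the wild-type label (grey), on a log axis with 95% counting intervals, and arrowheads at the left edge mark genes with no RIP-seq count. Solid and dotted lines are equality and 2-fold. From titin to mki67 the orange points lie right of the grey ones, APOB lies on opposite sides of equality, and the genes from apoa1b down lie left of equality under both labels.

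**Figure D5:**
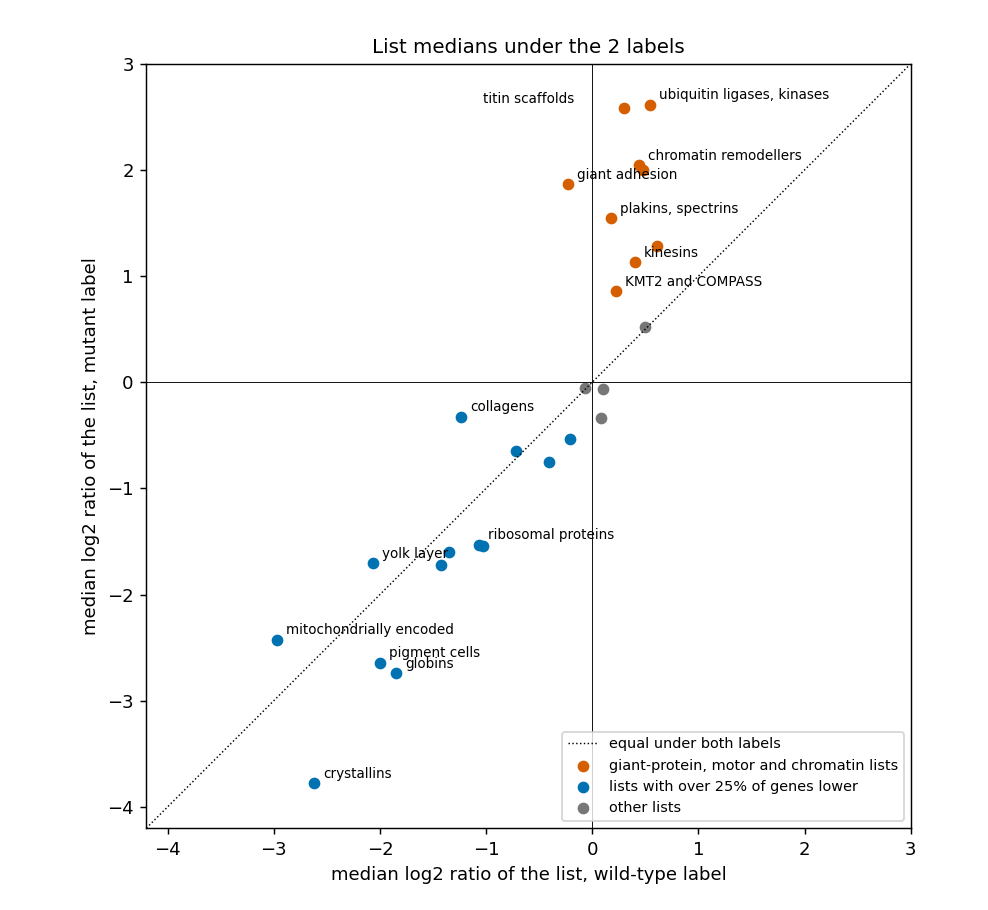
Median log2 ratio of 26 gene lists with the wild-type label (horizontal) and the mutant label (vertical), where the dotted line is equality of the labels. The 9 giant-protein, motor and chromatin lists (orange) lie above the line, while lists with over 25% of their genes lower (blue) lie on both sides of it in the lower left, and other lists (grey) near 0.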

How the data were processed

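Whole zebrafish embryos at 24 h post fertilisation gave 4 libraries, 1 for each assay (RNA-seq, RIP-seq) and genotype label. Per the labels' protocols, oligo(dT) beads enriched the mRNA before TruSeq library construction. For every library the authors deposited raw counts by Ensembl gene ID. The submitters' processing notes name build GRCz10 and, in no stated order, HTSeq 0.6.1p1, Bowtie2 2.2.3, TopHat2 2.2.1, FastQC 0.11.5 and bcl2fastq. Which strand setting and annotation release the counting used is not given in the sources used here. Overlapping, antisense and near-identical genes are therefore uncertain. HTSeq summary rows were left out of all totals: alignments that were not unique made up 8.42% of the RNA-seq and 89.5% of the RIP-seq alignments of the mutant label, and 54.0% and 79.2% of unique ones lay in no gene.

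Counts were scaled with TMM in edgeR 4.0.16 (R 4.3.3), with DESeq2 1.42.0 size factors among the alternatives. Ratios, exact binomial (Clopper-Pearson) 95% intervals and calls were computed in Python 3.11.15 with scipy 1.17.1, and the steps were tested on simulated data. List medians use log2 ratios with 0.5 added to each raw count before scaling. Genes at 0 RIP-seq counts lie lower this way than at their bound, as in the crystallin medians of -3.78 and -1.43. A fold against 0 counts is a bound from a floor of 3 counts per library. A symbol was found for 26121 of the 31953 gene IDs, and several genes can carry the same one. No sequences, gene positions or lengths were used here.

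Members and the 54 gene lists were chosen with earlier results of these data known. Non-members were taken off lists by name after matching, the histone list was split and a 7SL, RNase P and RNase MRP list added after values were seen. Named genes were taken from the candidates of a rule, not all of which are printed. These were the DDX39 genes, the 15 highest and 15 lowest genes by the interval bound nearest equality at a CPM of at least 5, the 10 highest non-coding RNA genes, the 10 highest and 10 lowest at an RNA-seq CPM of at least 100, and of each list the 3 highest, the 3 lowest and the 2 with most RNA-seq counts. Of 203 genes named with values, 161 fell under the rule and 42, chosen after their values were seen, did not.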

Additional observations from a re-analysis of the deposited data

Results flagged for a closer look

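Among named genes, 5 were called in opposite directions under the 2 labels, and 1 list with a median log2 ratio of at least 1 in size had the opposite sign under the other label. Other named genes and lists differed in sign without meeting these limits. With 1 library each, the difference was not tested. APOB, the backbone of lipid particles, had a log2 ratio of 1.25 with the mutant label and -1.79 with the wild-type label, where it had 206 RIP-seq and 12811 RNA-seq counts. The sorting receptor gene SORL1 had 2.27 and -1.15, from 149 RIP-seq and 454 RNA-seq counts and 12 RIP-seq and 497 RNA-seq counts. The striated muscle kinase gene spega had 2.13 and -1.67, and the giant ubiquitin ligase gene RNF213 had 2.48 and -1.46. For LRP1 ENSDARG00000097827 the values were 1.32 and -2.64, from 31 RIP-seq and 185 RNA-seq counts and 2 RIP-seq and 280 RNA-seq counts. The median of the giant adhesion and lipoprotein receptor genes was 1.86 with the mutant label and -0.23 with the wild-type label.

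Outside the gene counts, alignments that were not unique made up 89.5% of the RIP-seq library of the mutant label, above the 8.42% of its RNA-seq library. Their part in the gene ratios was not tested.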

How the results depend on the processing

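The totals of 2441 higher and 2875 lower genes stayed within 1.5 times under DESeq2, upper-quartile, 4-library TMM and leading-feature-free scaling and under 4 other filters, 1 of them (a CPM of at least 1 in both libraries) chosen after seeing the data. They became 500 and 12946 when scaled by total gene counts, 1221 and 1348 at a 4-fold minimum, and 1329 and 906 where the whole interval had to lie beyond 2-fold. The last 2 rules are stricter by construction. Dropping the filter could not change the totals, since genes below it have too few counts for a call. Scaled by total gene counts, 37 of 203 named genes and 13 of 54 list medians changed sign. Of genes called with TMM scaling these were ahnak (-0.41), NOTCH3 (-0.68), mt-atp8 (-0.10), ACTA1 (-0.43), APOB (-0.54), SNRNP200 (-0.69), mcm3ap (-0.31), THOC2 (-0.66), EIF4G1 (-0.40), DDX21 (-0.35), ISL1 (-0.36) and LRP1 ENSDARG00000097827 (-0.47). Of medians of at least 1 in size these were plakin and spectrin (-0.25) and kinesin genes (-0.66), with protocadherin (-1.49) and ribosomal RNA genes (-0.94), where other genes passed the filter. Over the same genes the last 2 medians were -0.51 and 4.41. The microRNA median of -1.79, over 5 genes, became 3.19 over the 18 genes that passed the filter without the 5 leading features in the scaling (-1.88 over the same 5), 2.29 with no filter, 0.12 with a prior count of 2 and 0.82 with zeros at their bound. The core histone median of 9.09 became -1.10 over genes with an RNA-seq CPM of at least 1 and over genes with that CPM in both libraries, since the high genes drop out. Apart from total-count scaling, 58 values of named genes lost their call, 6 gained one and 1932 stayed called or uncalled as before, a few uncalled ones with a change of sign.

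No paired analysis was possible because each group has 1 library, and for the same reason no replicate could be left out. The comparison with coding length and the restriction to genes with a protein were not run, as no lengths were used here. RIP-seq depth limits the lower side: below 57 RNA-seq counts no lower call could be made.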

Other observations

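Genes without a symbol or with a clone name made up 3144 of the compared genes, of which 677 were higher and 353 lower in RIP-seq with the mutant label. With 0 RNA-seq counts, 129 genes were called higher, and with 0 RIP-seq counts 398 were called lower. Another 6323 genes had counts below the filter, and 7919 had 0 in both libraries.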
